A study of Homo sapiens with 2 samples.

Results

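The genes described here encode the proteins of the cytosolic ribosome, and the data set them side by side in ACHN cells with a Kindlin-2 shRNA and in ACHN cells with a control shRNA. Members were the genes whose only platform symbol on a transcript cluster (the probe set that stands for a gene on this array) was that of a ribosomal protein of the large subunit (RPL) or of the small subunit (RPS), with RPLP1, RPLP2 and FAU. Pseudogenes and the S6 kinases were left out, as were RPS19BP1 and RPL34-DT, whose symbols begin alike but which encode no ribosomal protein. The rule gave 68 of the 18417 genes with a cluster of their own, of which 58 were core ribosomal protein genes and 10 were paralogues, the Y-linked forms of RPS4 among them. It used no measured value other than to take the brightest cluster of a gene. A further 20 of 78 core genes had no cluster with a single symbol and were not analysed here.

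ACHN is an established cell line from a human kidney cancer, labelled as clear cell carcinoma. The knockdown group was 1 culture transfected with an shRNA against Kindlin-2, the integrin adaptor encoded by FERMT2, and the reference was 1 culture transfected with a control shRNA. Both were grown in minimum essential medium with 10% serum and G418 at 400 µg/ml, a drug that selects transfected cells. RNA of each was read on 1 Affymetrix Human Gene 1.0 ST array, so each value is a single measurement (n = 1 per group), no test was possible, and a difference describes these 2 arrays only. The labels name neither the vector nor the hairpin sequence, nor do they say how many clones a culture held.

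A ribosome joins a large subunit, which forms the peptide bond, with a small subunit, which reads the messenger RNA. Ribosomal proteins are made in near equal numbers, and unassembled copies are degraded. Their messenger RNAs share a 5′ terminal oligopyrimidine tract, a C at the first base followed by a run of C and T (U in the RNA), through which mTOR signalling and the protein LARP1 control their translation.

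That tract is shown for some of the genes with the largest differences on either side of 0, and for some partners among core genes and paralogues. Only genes with 1 listed start are shown, which leaves out RPL26L1, the paralogue of RPL26. RPL10, also among the lowest, was not picked for display. Each window runs from 10 bases before to 20 bases from the start site in the RefSeq annotation of GRCh38.p14, 5′ to 3′ on the strand of the gene. Capitals mark an unbroken run of C and T that begins with C at the start site and is at least 5 bases long.
RPL22 (chr1:6199576-6199605, minus strand): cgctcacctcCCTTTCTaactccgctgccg
RPL22L1 (chr3:170870176-170870205, minus strand): ccgtagcttcCTCTCTgctctcgcggccga
RPL7A (chr9:133348208-133348237, plus strand): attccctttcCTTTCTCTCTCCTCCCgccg
RPS14 (chr5:150449720-150449749, minus strand): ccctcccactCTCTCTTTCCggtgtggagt
RPL35 (chr9:124861938-124861967, minus strand): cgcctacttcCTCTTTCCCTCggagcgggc
RPS6 (chr9:19380217-19380246, minus strand): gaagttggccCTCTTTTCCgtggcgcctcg
RPS21 (chr20:62387093-62387122, plus strand): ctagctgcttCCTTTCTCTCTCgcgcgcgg
RPL26 (chr17:8383174-8383203, minus strand): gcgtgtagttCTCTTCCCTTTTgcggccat
RPS27 (chr1:153990752-153990781, plus strand): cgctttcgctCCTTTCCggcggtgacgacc
RPS27L (chr15:63157458-63157487, minus strand): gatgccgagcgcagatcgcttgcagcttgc
The run was 16 bases long in RPL7A, 12 in RPS21 and RPL26, 11 in RPL35 and 10 in RPS14. It was 7 bases long in RPL22 and RPS27 and 6 in RPL22L1, and the window of RPS27L has none at the start. The tract was thus present in genes that were lower and in genes that were higher in the knockdown array.

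The tract was common among the members and rare elsewhere. Of the 57 members with an entry in the RefSeq start table, 39 (68.4%) had it at a listed start, that is 37 of 49 core genes and 2 of 8 paralogues. Of all protein-coding genes listed there, 988 of 15843 (6.24%) had it, and among genes of mitochondrial ribosomal proteins 6 of 69 (8.7%). Only the strand of the gene was searched, and a start listed a few bases away from the true one hides a tract. Among the members that passed the filter on dim genes, the 38 with the tract had a median difference of -0.14 on the log2 scale and 30 of them were below 0. The 16 without it had a median of -0.18 and 11 were below 0. Of all kept genes 53.2% were below 0.

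FERMT2, read by cluster 7979204, was at 8.26 on the log2 scale in the knockdown, against 9.37 in the control, a difference of -1.11, in the direction of its label. Of 12 renal epithelial markers 11 had a single-symbol cluster and all 11 passed the filter. Their median difference was -0.25 (all kept genes -0.02). At least 1.2-fold lower were 5 of them (all kept genes 20%), and 1 was at least 1.2-fold higher (all kept genes 16.6%). They ran from PAX2 (-0.66) to CDH6 (0.91), with KRT8 at -0.54 and PAX8 at -0.13. Of markers of other cell types, 1 of 6 measured leukocyte genes passed (CD68, also a lysosomal gene, at 10.25 in the knockdown, against 9.01 in the control). So did 1 of 6 endothelial and 4 of 7 fibroblast genes. The fibroblast genes were mixed, with PDGFRB at -0.77, ACTA2 at -0.76, COL1A2 at -0.02 and COL1A1 at 0.17. PTPRC, which defines leukocytes, was dim at 3.54 in the knockdown, against 3.53 in the control. The part of these markers in the results was not tested. The filter asked that the higher value of a gene reach 6.52, the median of the whole table, and 11822 genes passed it. CDH6 passed only through the knockdown array (6.41 in the control), and PDGFRB only through the control array (6.31 in the knockdown). Levels are not compared between genes, since probes differ in brightness, and a lower value in a culture can mean fewer cells with the transcript or less of it per cell.

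As a group the ribosomal protein genes were slightly lower in the knockdown array. Of the 68 members 64 passed the filter, and 47 of these (73.4%) were below 0, whereas 53.2% of all kept genes were below 0. The median difference of the members was -0.16 on the log2 scale, which is 89.5% of the control value, while the median over all kept genes was -0.02. The mean was -0.14. The quartiles of the members were -0.23 and 0.01, and those of all kept genes were -0.21 and 0.17. Above 0 were 17 members, against 46.4% of all kept genes.

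The shift was broad and small, and few members lay far out. At least 1.5-fold lower were 2 members, RPL7A and RPL22, against 5.23% of all kept genes, and at least 1.5-fold higher was 1 member, RPL22L1, against 5.1% of all kept genes. Both shares are under the background. No member differed by 2-fold (all kept genes 1.26% lower and 1.41% higher). At least 1.2-fold lower were 14 members (21.9%), a share near the 20% of all kept genes, and at least 1.2-fold higher were 2 members, RPL22L1 and RPS27L, against 16.6% of all kept genes. Within 1.2-fold of equal were 48 members (75%), against 63.4% of all kept genes. The SD of the difference was 0.21 over the kept members and 0.40 over all kept genes. Higher values of 1.2-fold or more were thus few among the members, while lower ones were at about the background share.

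**Figure D1:**
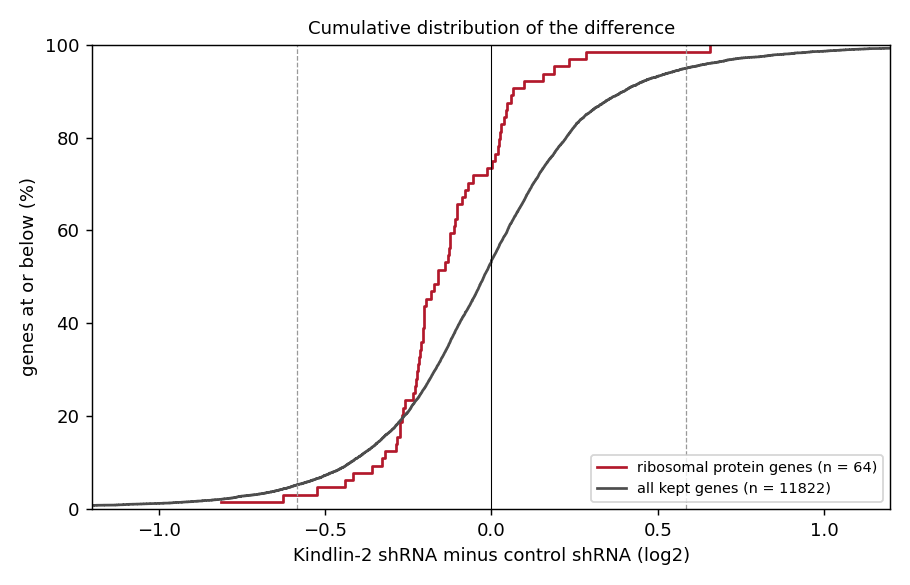
Cumulative share of genes (percent, vertical axis) at or below a given difference, Kindlin-2 shRNA minus control shRNA (log2, horizontal axis), for the 64 kept ribosomal protein genes (red) and all 11822 kept genes (grey). Dashed lines mark 1.5-fold in either direction. The red line reaches 73.4% at 0, where the grey line is at 53.2%, and the lines run close together below the 1.2-fold range.

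Most members were measured by bright clusters, and the shift was alike in brighter and dimmer ones. The mean log2 value of the 2 arrays was at least 10 in 49 of the 64 kept members. Those 49 had a median difference of -0.16 with 37 below 0, while in the 15 dimmer ones the median was -0.16 and 10 were below 0. Kept genes of like brightness that are no members (1301 genes with a mean of at least 10) had a median of 0.02, and 47.3% of them were below 0. Across the 64 members the mean value and the difference had a Pearson r of -0.13 and a Spearman rho of 0.03, given as a description over genes that share both arrays. No scanner flags were used, so whether the brightest clusters were saturated was not tested.

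In the large subunit 28 of 36 core genes were below 0 (all kept genes 53.2%), with a median difference of -0.19. RPL7A, a large subunit protein, was at 10.51 in the knockdown, against 11.33 in the control, a difference of -0.81 (1.76-fold lower) and the lowest of all members. RPL22, a protein at the surface near the exit of the peptide tunnel, was at 7.29 in the knockdown, against 7.92 in the control, a difference of -0.63. RPL10, which joins the large subunit late in its assembly and lies near the peptidyl transferase centre, was at 10.88 in the knockdown, against 11.32 in the control (-0.44). RPL7A and RPL22 were each read by 1 cluster, so no other cluster checks these values. In the platform's numbering the RPL7A cluster lies among clusters of chromosome 18 genes, although the gene is on chromosome 9, and RPL22 lay just past 1.5-fold (1.54-fold).

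Proteins that line the peptide exit tunnel or its rim did not share a direction. Of 8 kept genes, 5 were below 0 (all kept genes 53.2%) and the median was -0.13. RPL35, which lies at the rim, was at 11.70 in the knockdown, against 12.12 in the control (-0.42). RPL4, whose loop reaches into the tunnel, differed by -0.06. RPL26, a rim protein, was at 11.10 in the knockdown, against 11.04 in the control, a difference of 0.06, and RPL19 (0.03) and RPL23A (0.02) also lay just above 0.

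The stalk and the particle that carries RPL5 and RPL11 differed little. RPLP1 and RPLP2 are acidic proteins of the stalk that recruits elongation factors. RPLP1 was at 12.34 in the knockdown, against 12.57 in the control (-0.23), and RPLP2 at 11.40 in the knockdown, against 11.58 in the control (-0.18). RPL5 and RPL11 bind the smallest ribosomal RNA and, when ribosome assembly is disturbed, the p53 regulator MDM2. RPL11 was at 11.90 in the knockdown, against 12.03 in the control (-0.13), and RPL5 at 12.95 in the knockdown, against 12.91 in the control (0.04). The other clusters of RPL5 were below 0 (-0.15 and -0.06), so its sign depends on the cluster used. The other 24 large subunit genes had a median of -0.20, with 20 of them below 0 (all kept genes 53.2%) and 7 at least 1.2-fold lower (all kept genes 20%). RPL30 (-0.33), RPL7 (-0.28), RPL29 (-0.28), RPL13 (-0.27) and RPL36 (-0.26) followed RPL7A and RPL10. Above 0 were RPL14, RPL37A, RPL38 and RPL34, of which RPL14 was the highest core gene of the large subunit at 12.03 in the knockdown, against 11.94 in the control (0.10).

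In the small subunit 17 of 22 core genes were below 0 (all kept genes 53.2%), with a median difference of -0.17. No member of this subunit differed by 1.5-fold (all kept genes 5.23% lower and 5.1% higher). RPS14, whose loss of a copy is linked to the anaemia of patients with a chromosome 5 deletion, was at 10.36 in the knockdown, against 10.88 in the control (-0.53). RPS6, the substrate of the S6 kinases, was at 11.86 in the knockdown, against 12.22 in the control (-0.36). RPS23, a protein of the decoding centre, differed by -0.32.

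Values are given next for the head and the body of the small subunit, without a comparison, since the counts depend on which cluster stands for a gene. All 8 kept head genes were below 0, within -0.29 to -0.08, and their median was -0.23. RPS28 (-0.29), RPS19 (-0.28), RPS3 (-0.26), RPS20 (-0.24), RPS15 (-0.23) and RPS29 (-0.22) lay close together. RPS19 is the gene first linked to Diamond-Blackfan anaemia, and RPS3 lies where the messenger RNA enters. Of the 14 body genes 9 were below 0, with a median of -0.12, and the 5 above 0 were RPS2, RPS7, RPS3A, RPS15A and RPS21. RPS15A was at 12.71 in the knockdown, against 12.56 in the control (0.16). RPS21 was at 9.51 in the knockdown, against 9.27 in the control (0.23), the highest of the core genes. The other clusters of RPS2 (-0.09 at both), RPS7 (-0.19) and RPS3A (-0.17 to -0.05) were below 0, while a dim second cluster of the head gene RPS15 was at 0.17. With all clusters averaged per gene, 20 of 22 small subunit genes were below 0.

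Diamond-Blackfan anaemia is an inherited failure of red cell formation caused by loss of a ribosomal protein gene copy. Its genes, all of them core genes here, were mostly below 0, like the core genes as a whole. Of 18 such genes on the list 14 had a value, and 11 (78.6%) were below 0, against 77.6% of all kept core genes. Their median was -0.13, while that of the core genes was -0.19 and that of all members, paralogues included, was -0.16. The range ran from -0.42 in RPL35 to 0.06 in RPL26.

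**Figure D2:**
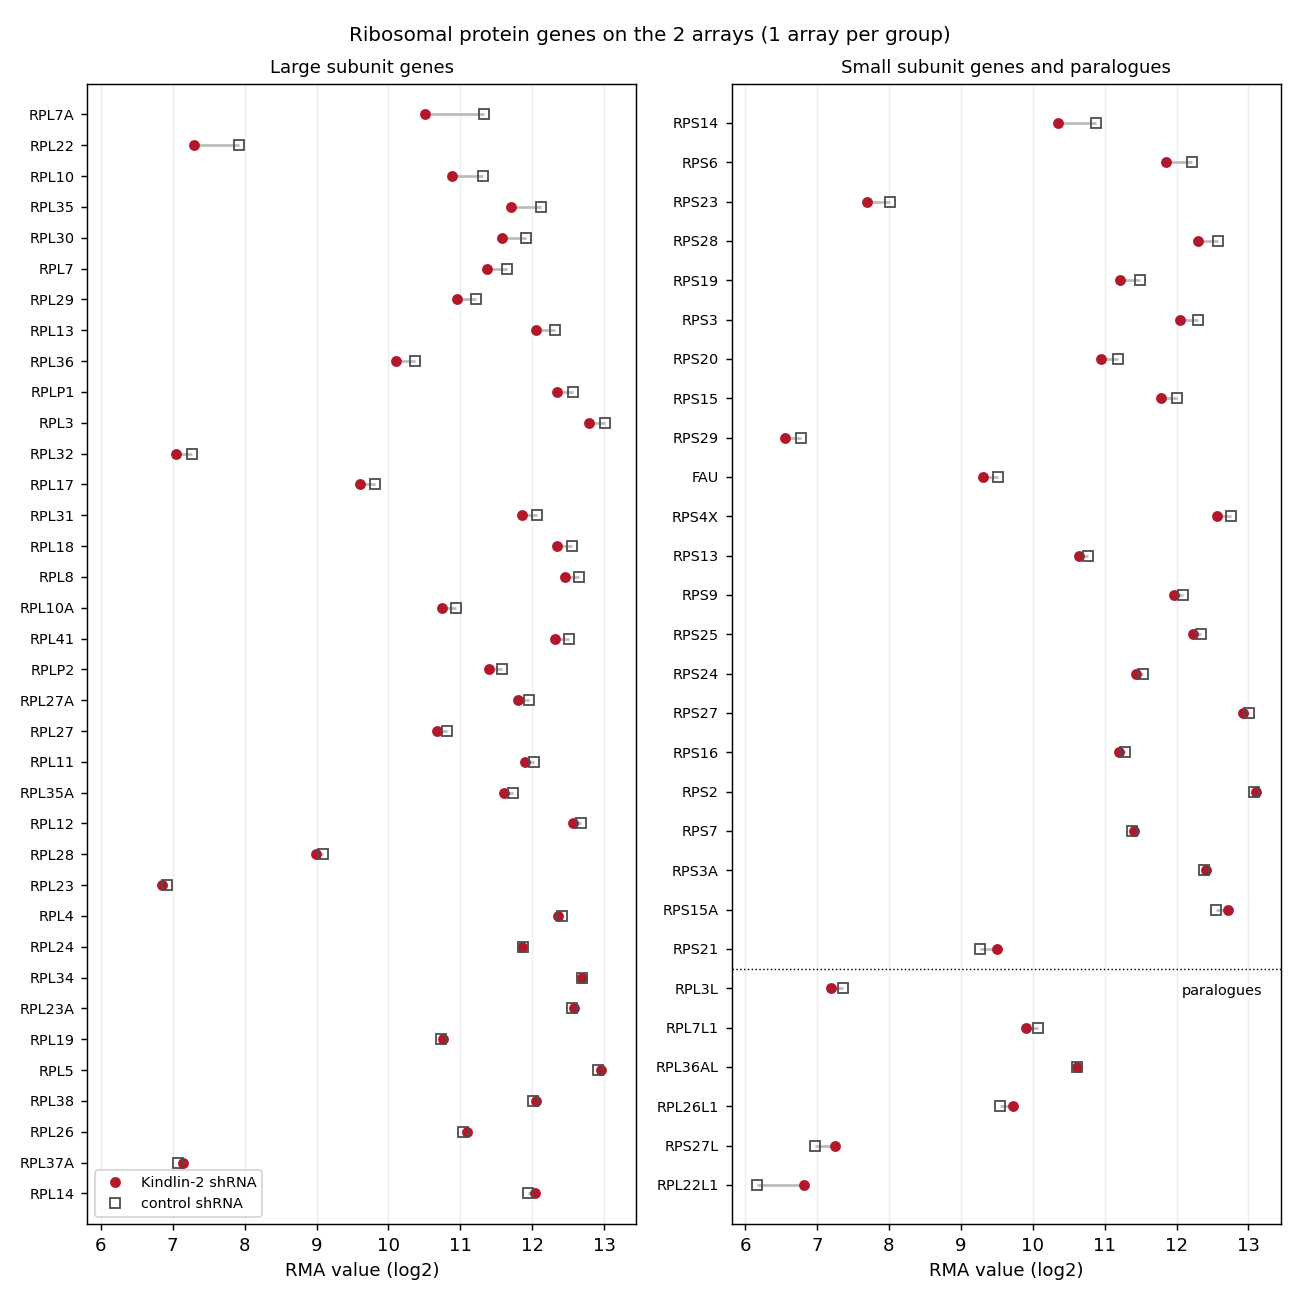
RMA value (log2, horizontal axis) of each of the 64 kept members in the Kindlin-2 shRNA array (red circle) and the control shRNA array (open square), for large subunit genes (left) and for small subunit genes and paralogues (right), each ordered by the difference with the lowest on top. The circle lies left of the square in 28 of 36 large and 17 of 22 small subunit genes, and the gap is widest in RPL7A (10.51 and 11.33).

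Paralogues are gene copies whose product can replace a core protein in some ribosomes, and their values were mixed. Of 10 paralogues 6 passed the filter, with 4 above 0 (all kept genes 46.4%) and a median difference of 0.10. Without RPL22L1, which passed only through the array where it was higher, the median of the other 5 was 0.0032, with 3 above 0. RPL22L1, the paralogue of RPL22, was at 6.82 in the knockdown, against 6.16 in the control, a difference of 0.66 (1.58-fold higher). Its control value was under the floor of 6.52. In mice, loss of Rpl22 is known to go along with more Rpl22l1. RPL22 itself was lower, as given above, and the difference of RPL22L1 exceeded that of RPL22 by 1.28 on the log2 scale. This was the widest gap among the 6 pairs in which paralogue and core gene both had a value. Both genes were chosen for display with these values in view and each was read by 1 cluster, so the gap is a description. A link between the lower RPL22 and the higher RPL22L1 was not tested.

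RPS27L, a known p53 target and the paralogue of RPS27, was at 7.25 in the knockdown, against 6.97 in the control (0.29). RPS27 was at 12.92 in the knockdown, against 13.01 in the control (-0.09). RPL26L1 was at 9.73 in the knockdown, against 9.54 in the control (0.19), and its partner RPL26 differed by 0.06. These paralogues lay above their partners by 0.37 and 0.13. RPL36AL was nearly equal on both arrays (10.62 in the knockdown, against 10.61 in the control), and its partner RPL36A has no value here. RPL7L1 (-0.16), which acts in the nucleolus, and RPL3L (-0.17), a form of skeletal and heart muscle, were below 0 like their partners RPL7 (-0.28) and RPL3 (-0.22). RPL10L and RPL39L, known for expression in testis, did not pass the filter, with differences of -0.0025 and 0.47, and the Y-linked RPS4Y1 and RPS4Y2, whose levels are not given, did not pass it either.

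Several genes had more than 1 cluster, which shows how far the clusters of a gene differ. Of the 68 members 23 had several clusters, and near-identical processed copies in the genome mean that a cluster can also read transcripts of a copy. In 21 genes at least 2 different clusters reached the floor, 53 clusters in all, and the pooled SD of the difference among clusters of a gene was 0.12 on the log2 scale. Of these 21 genes 6 had clusters on both sides of 0, namely RPL27A, RPL29, RPL5, RPS2, RPS3A and RPS7. Clusters of a gene share the RNA and both arrays, so this spread holds no difference between cultures. They may also read the same or near-identical sequences, which was not tested, so close values are no independent check.

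Bright clusters of the same gene were closer to each other. In 13 genes at least 2 different clusters had both values at 10 or above, and the median range of their differences was 0.03, with the widest, 0.20, in RPS3A. The 3 clusters of RPS28 had differences of -0.31, -0.29 and -0.29. Those of RPL7 lay between -0.28 and -0.26. RPL23A, in contrast, had 0.02 at both of its clusters. RPS28 and RPL7 were thus below 0 at every cluster, and RPL23A was just above it. In RPL41 the bright clusters had identical values and a difference of -0.20, while a dim one (7.68 in the knockdown, against 8.36 in the control) differed by -0.68. In RPL27A the range was the widest of the 21 genes, from -0.43 to 0.08, and both ends were dim clusters.

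**Figure D3:**
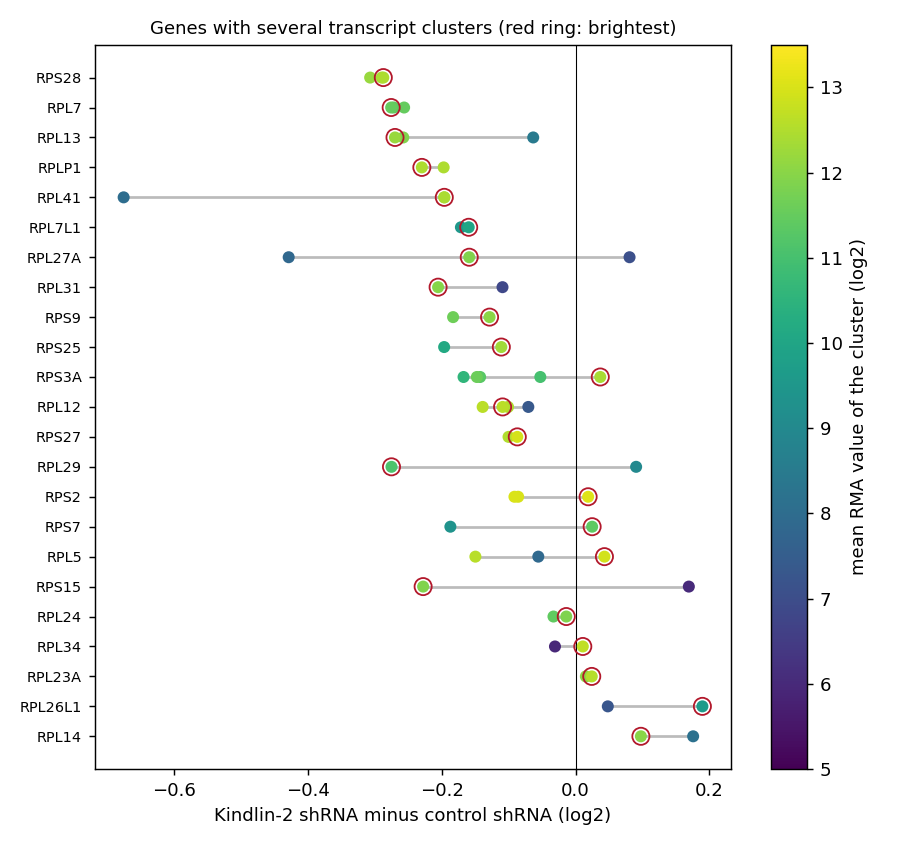
Difference, Kindlin-2 shRNA minus control shRNA (log2, horizontal axis), of every single-symbol cluster of the 23 members with several clusters (1 row per gene), coloured by mean RMA value (log2). A red ring marks the brightest cluster, whose value is used for the gene. Clusters lie close together in RPS28 (-0.31 to -0.29) and far apart in RPL27A (-0.43 to 0.08) and RPL41 (-0.68 to -0.20).

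The clusters carry no positions here, but their numbers follow the genome. A cluster was placed on a chromosome when more than 5 of the 10 clusters nearest in number had genes there, and 99.2% of 19103 placed clusters of other genes had their own gene on that chromosome. Of the 64 kept members 46 had a cluster placed on the chromosome of the gene, 7 had none that could be placed, and 11 had one placed on another chromosome. Those 11 were RPL7A, RPS28, RPL7, RPL12, RPS27, RPL34, RPS2, RPL23A, RPL5, RPL14 and RPL26L1. Whether such a cluster reads a copy there or the transcript of the gene was not tested. The 46 had a median difference of -0.19 with 35 below 0, and the 11 had a median of 0.01 with 5 below 0. The 7 that could not be placed had a median of -0.16, and all 7 were below 0. Of all kept genes 53.2% were below 0. The shift of the group was thus present among members whose cluster was placed on the chromosome of the gene. Among them RPL22 remained as the member at least 1.5-fold lower and RPL22L1 as the one at least 1.5-fold higher. The placing gives the chromosome and not the position on it, so a cluster may still read a copy elsewhere on that chromosome.

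On some chromosomes most genes differed in 1 direction between these arrays, so each member was set beside the other genes of its chromosome. The 64 kept members lie on 20 chromosomes, and of these, chromosomes 9, 12 and 20 had the other-gene medians furthest from 0. On chromosome 9 the other kept genes had a median of -0.31, and the members placed there were RPL35 (-0.42) and RPS6 (-0.36). With the median of the 50 nearest kept genes subtracted, RPL35 was at -0.11 and RPS6 at 0.02. RPL7A and RPL12 are genes of chromosome 9 too, but their clusters were placed on chromosomes 18 and 2, so genes near them on chromosome 9 may not be the surroundings of what was read. On chromosome 20, whose other genes had a median of 0.26, RPS21 was the only member, and it was at 0.09 after the subtraction. RPL41 on chromosome 12 (others at -0.21) was at 0.02 after it. That value is for its bright cluster, while its dim cluster differed by -0.68 before any subtraction. Where on the chromosome each of them reads was not tested, so the neighbours of the gene may not be those of the bright cluster.

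Other members lay on the opposite side of 0 from their neighbours, or beyond them. RPS14 and RPS23 on chromosome 5 (-0.53 and -0.32) had neighbours with medians of 0.18 and 0.14, and were at -0.70 and -0.46 after the subtraction. RPL22 on chromosome 1 had a neighbour median of -0.02 and was at -0.61, and RPL22L1 on chromosome 3 had one of 0.10 and was at 0.56. By the chromosome of the gene, all 6 members on chromosome 11 (median -0.17, other genes -0.02), all 8 on chromosome 19 (median -0.22, other genes -0.09) and all 4 on chromosome 8 (median -0.26, other genes -0.05) were below 0. On chromosome 17, in contrast, 4 of 6 members were above 0, within -0.14 to 0.06. For the whole group the median was -0.10 with neighbours subtracted, and 43 of 64 members were below 0, against 49.7% of all kept genes. For the 46 members placed on the chromosome of their gene it was -0.11, with 33 below 0.

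**Figure D4:**
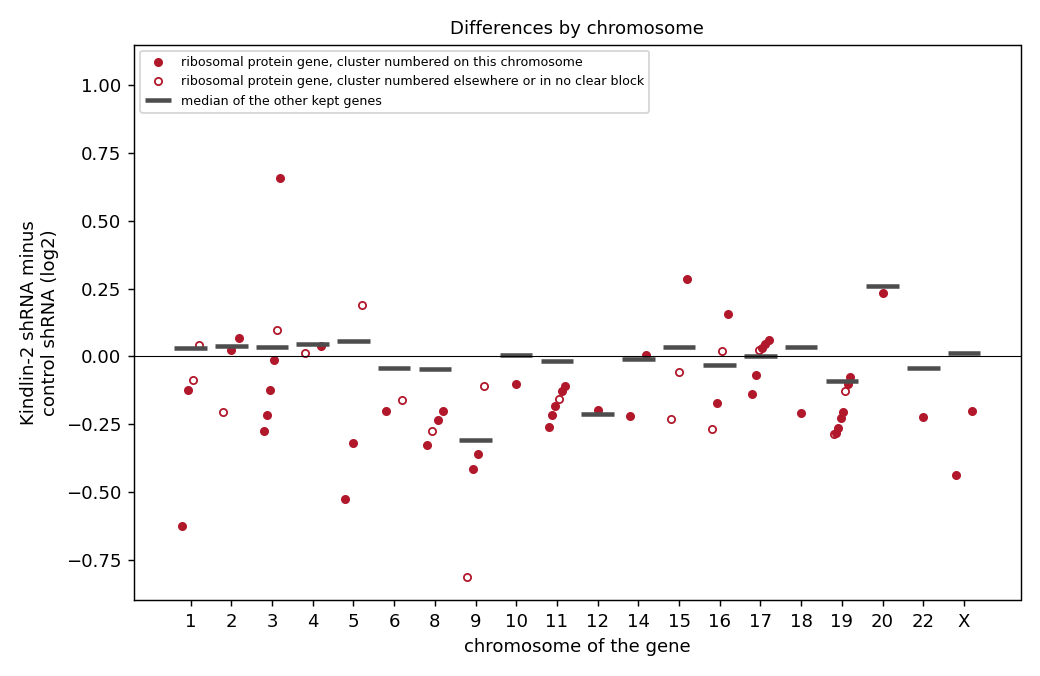
Difference, Kindlin-2 shRNA minus control shRNA (log2, vertical axis), of each kept member by the chromosome of its gene (filled red points where the cluster was placed there, open ones where it was placed elsewhere or not placed), with the median of the other kept genes of that chromosome (grey bar). Members follow the bar on chromosomes 12 and 20, lie below it on chromosomes 8 and 11, lie below it on chromosome 19 other than RPS16 (-0.08, bar at -0.09), and spread from -0.81 (RPL7A, open) to -0.11 (RPL12, open) on chromosome 9.

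Genes that build the ribosome were more often above 0 than below it. Of 70 kept ribosome biogenesis factors 43 were above 0 (all kept genes 46.4%), and their median difference was 0.14. At least 1.2-fold higher were 21 of them (all kept genes 16.6%) and at least 1.2-fold lower were 7 (all kept genes 20%). None differed by 1.5-fold (all kept genes 5.23% lower and 5.1% higher). The nucleolar proteins nucleolin and nucleophosmin were higher in the knockdown array. NCL was at 12.06 in the knockdown, against 11.69 in the control (0.37), and NPM1 at 12.35 in the knockdown, against 11.99 in the control (0.36). At the ends of the list stood MDN1, the large ATPase of large subunit maturation (0.53), and POLR1C, a subunit shared by RNA polymerases I and III (-0.53). MYC, a transcription factor of ribosome genes that is counted below in the list of mTOR and S6 kinase genes, was at 10.46 in the knockdown, against 10.72 in the control (-0.27). These examples were chosen after their values were seen.

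Translation factors as a list were split evenly. Many of their messenger RNAs carry the same tract, but the list was not divided by it. Whether factors with the tract differed from those without it was not tested. Of 43 kept genes 22 were below 0 (all kept genes 53.2%) and 21 above, with a median of -0.00058. The elongation factors EEF1A1 (-0.00058) and EEF2 (-0.18) and the poly(A) binding protein PABPC1 (-0.28) were chosen after their values were seen. Past 1.5-fold was 1 gene (all kept genes 5.23% lower and 5.1% higher). This was EIF2S2, a subunit of the factor that brings the initiator tRNA, at 9.96 in the knockdown, against 9.05 in the control (1.89-fold higher). It lies on chromosome 20, where the other-gene median was 0.26.

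The list of mTOR signalling genes and S6 kinases also held the transcription factors MYC (-0.27) and MAX (-0.42). The lowest of the list were EIF4EBP2 (-0.55) and TSC1 (-0.52), and the activity of the pathway was not measured. With MYC and MAX counted in, 15 of 22 kept genes were below 0 (all kept genes 53.2%), 7 were above 0 and the median was -0.17. That median moved to -0.088 with chromosome medians subtracted and to -0.040 with neighbours subtracted. RPS6KA5, the nuclear kinase MSK1, which phosphorylates histones, was at 8.12 in the knockdown, against 6.72 in the control (2.64-fold higher), the only gene of the list past 1.5-fold. RPS6KB1, which encodes the main kinase of RPS6, differed by -0.05, MTOR by 0.25 and LARP1 by 0.21 (chosen after their values were seen). Mitochondrial ribosomal protein genes, the closest group in function, had a median of -0.05. Of these 43 of 72 (59.7%) were below 0, against 53.2% of all kept genes. Of these 10 were at least 1.2-fold lower (all kept genes 20%) and 5 at least 1.2-fold higher (all kept genes 16.6%), and none differed by 1.5-fold (all kept genes 5.23% lower and 5.1% higher). Whether any of these groups differs from the cytosolic ribosomal protein genes could not be tested with 1 array per group.

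**Figure D5:**
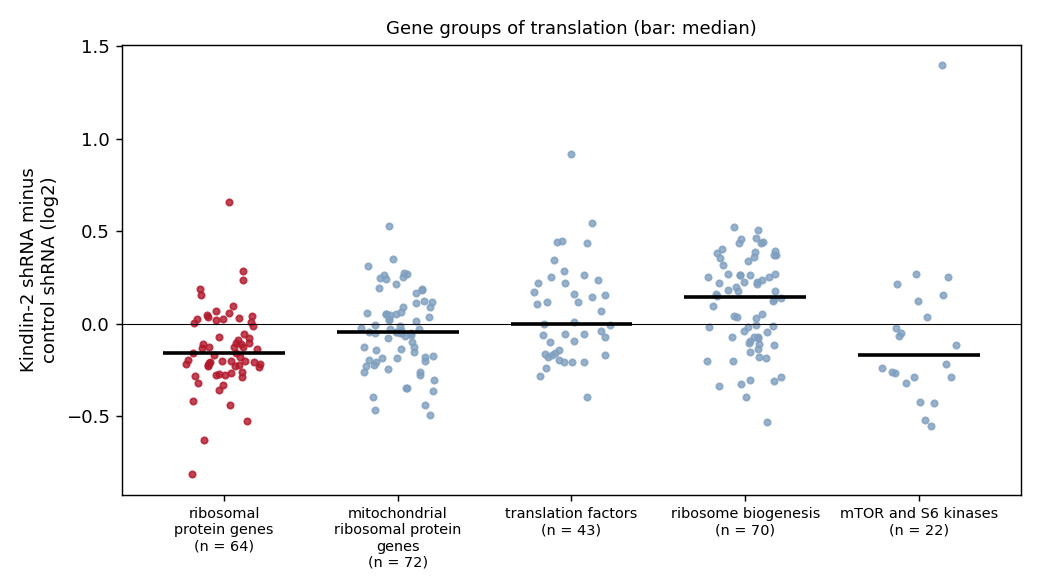
Difference, Kindlin-2 shRNA minus control shRNA (log2, vertical axis), of each kept gene (points, spread sideways at random) of 5 groups of translation genes, with the median of each group as a bar. The bar is at -0.16 for ribosomal protein genes, -0.05 for mitochondrial ribosomal protein genes, -0.00058 for translation factors, 0.14 for ribosome biogenesis factors and -0.17 for mTOR and S6 kinase genes (MYC and MAX included).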

How the data were processed

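For each of 33297 transcript clusters, the authors deposited log2 values from 2 arrays. Per the submitters' processing notes, Expression Console 1.4.1 and RMA were used. That method corrects background, makes the arrays' distributions alike and summarises probes, so a shift shared by most genes is removed and folds of dim genes are compressed. The labels do not say which arrays were normalised together.

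Of the clusters, 19460 had 1 platform symbol, 1754 several and 12083 none, and 19429 symbols were updated through Entrez IDs to RefSeq (GRCh38.p14). Each of 18417 genes was represented by its brightest cluster. A gene was kept when its higher value reached 6.52. The difference is Kindlin-2 shRNA minus control shRNA, and a gene was counted as different from 1.5-fold on, with 1.2-fold and 2-fold as alternatives. Neighbours were the 50 nearest kept genes of the chromosome, members left out. The steps were checked on simulated data with Python 3.11.15, pandas 2.3.3 and statsmodels 0.14.6 (the last for loess). With 1 array per group no p-value, SD or interval between cultures exists, and the number of arrays limits precision. The members, gene lists and the rule for named genes (members past 1.5-fold, the 6 highest and 6 lowest, paralogues with partners, RPL5, RPL11 and the stalk, and from other lists those past 1.5-fold) were chosen with earlier results of these data known.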

Additional observations from a re-analysis of the deposited data

How the results depend on the processing

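The median of the ribosomal protein genes was below 0 under every alternative run, as were those of the large and of the small subunit. It was -0.10 with neighbours subtracted, where the large subunit was at -0.10, and between -0.20 and -0.12 under the others. The small subunit was at -0.11 with chromosome medians subtracted. Alternatives chosen after seeing the data put the large subunit at -0.13 with the dimmest cluster of each gene and the small subunit at -0.22 with single-cluster members alone.

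Counts past a fold were small and moved with the setting. At 1.2-fold, 14 ribosomal protein genes were lower (9 large, 5 small subunit) and 2 higher, and at 2-fold the counts were 0 for ribosomal protein genes in either direction, 0 for the large subunit and 0 for higher translation factors. At 1.2-fold, 2 of 43 translation factors were lower and 8 higher. These counts were 7 and 21 of 70 biogenesis factors, and 8 and 2 of 22 mTOR and S6 kinase genes. They were 10 and 5 of 72 mitochondrial ribosomal protein genes, and 1 and 1 of 12 pseudogenes. Of all kept genes 20% were lower and 16.6% higher at 1.2-fold, and 1.26% and 1.41% at 2-fold. The count of members 1.5-fold lower was 1 instead of 2, also for the large subunit, with the loess correction (RPL22 at -0.58), with chromosome medians subtracted (RPL7A at -0.50) and, in settings chosen after seeing the data, without genes of chromosomes 7, 9, 12 and 20 or with the 46 members placed on the chromosome of their gene alone, both of which remove RPL7A. The count 1.5-fold higher was 0 with a floor 1 log2 unit higher, without paralogues and with neighbours subtracted, where 1 small subunit gene (RPS14) was past 1.5-fold.

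Among other groups, neighbour subtraction gave medians of 0.055 for translation factors, 0.094 for biogenesis factors, -0.040 for mTOR and S6 kinase genes with 2 of them 1.5-fold lower, 0.0068 for mitochondrial ribosomal protein genes and -0.014 for pseudogenes with 1 lower. mTOR and S6 kinase genes were at -0.088 with chromosome medians subtracted and their mean was -0.073. The mean of translation factors was 0.057. With the dimmest cluster 1 translation factor was 1.5-fold lower, and without the 4 chromosomes none (0) was higher. Pseudogenes were at -0.20 with the higher floor, -0.0060 with chromosome medians subtracted and -0.034 without the 4 chromosomes. The cause was not tested, except that the chromosome settings remove shifts shared by neighbouring genes. A median was called moved from 0.05 on. No paired analysis was possible because each group has 1 array. The number of arrays and dim signal, not read depth, limit these values.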

Other observations

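Transcript clusters named for a ribosomal protein pseudogene, a processed copy of a ribosomal protein gene that in most cases makes no protein, were measured as well. Of 21 such pseudogenes 12 passed the filter on dim genes. Of these 12, 8 were below 0 (all kept genes 53.2%) and 3 above, and 1 had the same value on both arrays. Their median difference was -0.09, but it was -0.20 with a higher floor and near 0 with chromosome medians (-0.0060) or neighbours (-0.014) subtracted. RPS18P9 was at 9.72 on the log2 scale in the knockdown, against 10.11 in the control (-0.38), and the parent gene RPS18 has no single-symbol cluster. RPL13AP5 was at 12.88 in the knockdown, against 12.90 in the control (-0.02). RPL32P3 was at 6.75 in the knockdown, against 6.35 in the control (0.40), whereas RPL32 was at 7.05 in the knockdown, against 7.27 in the control (-0.22). These clusters were named after their values were seen. Whether they read the copy or the parent transcript was not tested.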
